A study of Sus scrofa with 6 samples.

Results

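The skeletal and cardiac muscle genes on pig chromosome 2 described here are MYOD1, MEF2C, TNNI2, TNNT3, CSRP3, MYBPC3 and ACTN3, measured in parthenogenetic and control embryos. They are given by name and position, were chosen with earlier results of these data known, and make up 7 of the 1652 genes that could be tested. All 7 passed the filter on low counts. The annotation gives them 102 of the 81496 transcripts quantified per embryo. RNA was measured in 6 whole embryos at embryonic day 21, all of them labelled Landrace x Yorkshire x Duroc (LYD). The 3 parthenogenetic embryos (PA) grew from oocytes that were matured in vitro, activated by electric pulses without sperm and carried by surrogate gilts, so that both of their genomes are maternal. Natural mating gave the 3 control embryos (CN), which hold a maternal and a paternal genome. By the study's methods the PA oocytes came from LYD ovaries, whereas the CN dams were 2 LY (Landrace x Yorkshire) gilts mated with boars whose breed is not given in the sources used here. The labels record no other treatment of either group. PA and CN therefore differ in dam cross, oocyte maturation and embryo transfer as well as in parental genomes, and these cannot be told apart here. The methods name 2 surrogate gilts for PA and 2 gilts for CN, so at least 2 of the 3 embryos in each group shared a gilt.

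Skeletal muscle of the trunk and limbs arises from progenitors in the somites. There, MYOD1 and related basic helix-loop-helix factors switch on the muscle program, and MEF2 proteins act with them on the promoters of contractile genes in skeletal and cardiac muscle. Contraction is gated on the thin filament by troponin, whose I subunit inhibits and whose T subunit anchors the complex to tropomyosin, while myosin-binding protein C tunes the thick filament and alpha-actinin cross-links actin at the Z disc. TNNI2 and TNNT3 encode fast skeletal isoforms and stand in tandem close to the imprinted H19 and IGF2 genes, whereas MYBPC3 is the cardiac isoform of its family.

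Because TNNI2 and MYBPC3 are the members whose RNA was lower in PA by the test used here, the 150 bases before their annotated starts are shown in the direction of transcription, with CSRP3 beside them. The sequences are those of the Sscrofa11.1 genome at chr2:1251416-1251565 for TNNI2, chr2:15247529-15247678 for MYBPC3 and chr2:40219138-40219287 for CSRP3, all on the plus strand, with the starts taken from the RefSeq annotation.
TNNI2: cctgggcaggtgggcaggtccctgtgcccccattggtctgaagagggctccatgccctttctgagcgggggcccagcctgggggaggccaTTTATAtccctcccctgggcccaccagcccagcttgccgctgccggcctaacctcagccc
MYBPC3: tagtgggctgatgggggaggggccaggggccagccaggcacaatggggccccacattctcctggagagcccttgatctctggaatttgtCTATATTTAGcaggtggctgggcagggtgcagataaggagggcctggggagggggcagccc
CSRP3: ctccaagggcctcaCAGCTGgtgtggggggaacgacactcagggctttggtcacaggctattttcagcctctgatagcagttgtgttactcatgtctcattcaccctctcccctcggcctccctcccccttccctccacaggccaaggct
Capitals mark matches to the motifs that were searched on both strands. These were the E-box form CAGCTG, which can be bound by MYOD1, the M-CAT element CATTCC of TEAD factors, the TATA element TATAAA and the MEF2 consensus. Other E-box forms, such as the caggtg in the TNNI2 and MYBPC3 windows, were not searched and are not marked. In TNNI2 the capitals are TATAAA read on the opposite strand, 60 bases before the start, a match that 5.84% of 19570 windows of the same length hold. The MYBPC3 window holds the MEF2 consensus 61 bases before the start, a match found in 1.34% of the windows. The CSRP3 capitals are the E-box, 136 bases before the start, which 8.9% of the windows hold. CATTCC occurs in 5.78% of the windows and in none of the 3 shown. These matches describe letters and do not show that a factor binds.

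TNNI2, the inhibitory subunit of fast skeletal troponin, was lower in PA by the widest margin of the 7 genes. Its single transcript lies at chr2:1251566-1253883 on the plus strand. TPM is a level per transcript length, scaled to a fixed sum in each embryo. Of the counts on annotated genes, 99.6% to 99.7% lay on chromosome 2, so the TPM values given here cannot be set beside genome-wide TPM. TNNI2 reached 212, 231 and 244 TPM in CN1, CN2 and CN3. The PA embryos had 87.2, 83.5 and 88.3 TPM. The groups did not overlap, and the lowest CN embryo was well above the highest PA embryo. Means were 229 ± 16.2 TPM in CN and 86.3 ± 2.47 TPM in PA (SD, n = 3 each), so PA held 37.7% of the CN level. The log2 fold change, PA over CN, was -1.34 (SE 0.15, 95% interval -1.68 to -0.99), a 2.52-fold lower level, with an adjusted p of 0.00169 in edgeR's quasi-likelihood test. These levels rest on 209 to 240 estimated counts in CN and 87 to 96 in PA. In a bulk embryo, fewer muscle cells and less RNA per muscle cell cannot be told apart, which holds for every gene described here.

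MYBPC3, cardiac myosin-binding protein C, also fell in PA. It spans chr2:15247679-15269714 on the plus strand. CN embryos had 253, 355 and 284 TPM and PA embryos 133, 113 and 185 TPM, with no overlap between the groups. The means were 297 ± 52.1 and 144 ± 37.2 TPM (SD, n = 3 each). The log2 fold change was -0.98 (SE 0.15, 95% interval -1.32 to -0.64), 1.97-fold lower in PA, with an adjusted p of 0.00677 in edgeR. MYBPC3 therefore passed the adjusted p of 0.05 but fell just short of the absolute log2 fold change of 1 that the study also required. Its counts were 2199 to 2638 in CN and 984 to 1563 in PA.

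Of the 7 genes, 1 (TNNI2) passed both thresholds, against 2.91% of all genes tested. By adjusted p alone, 2 of the 7 were lower in PA and 0 higher, against 4.42% of all genes that were lower. At an unadjusted p under 0.05, 5 of the 7 passed in edgeR, against 21.2% of all genes, and DESeq2 called 3 at an adjusted p under 0.05, against 10.5%. The count past both thresholds was 2, with MYBPC3 added, when CN1, CN3 or PA3 was left out. In 5 of the 7, the TPM of every PA embryo was below that of every CN embryo, as it was in 16.6% of all genes tested. All 7 log2 fold changes were negative, as were 777 of the 1652 over all genes, with medians of -0.58 and 0.02. The MEF2C value of -0.04 changed sign when CN2, CN3 or PA1 was left out. With TMM-normalized counts in place of TPM, 4 of the 7 lay lower in every PA embryo, against 13.6% of all genes, because the TNNT3 groups then overlapped.

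**Figure D1:**
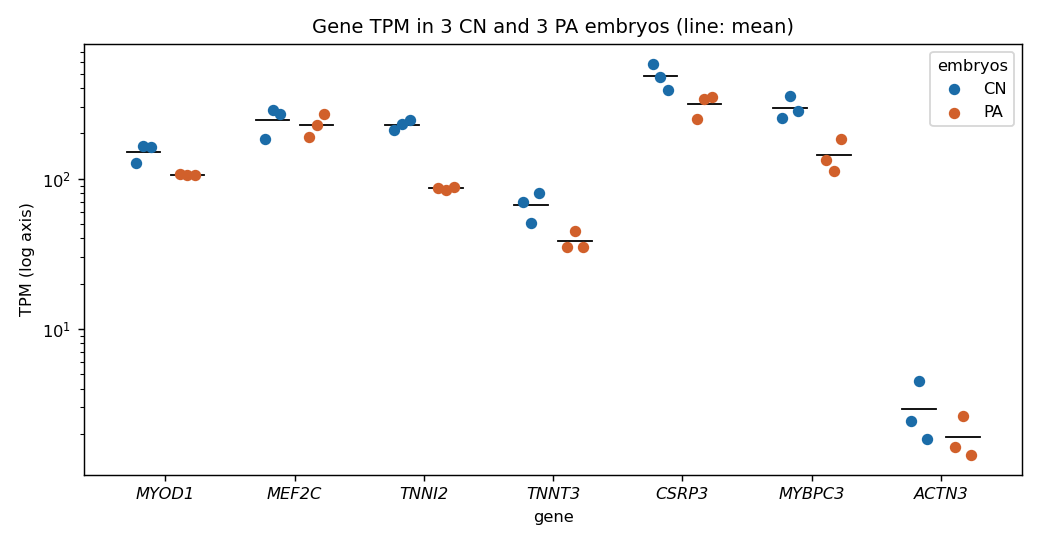
Level of each of the 7 muscle genes in TPM, on a log axis, in 3 CN (blue) and 3 PA (orange) embryos, with a line at each group mean. TNNI2 shows the clearest gap, 212 to 244 TPM in CN against 83.5 to 88.3 TPM in PA, while the MEF2C groups overlap.

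Among the other contractile and Z disc genes the differences pointed the same way without passing the test. TNNT3, the tropomyosin-binding subunit of fast skeletal troponin, lies at chr2:1297826-1316865 on the plus strand. Its level was 69.9, 50.4 and 80.1 TPM in CN and 34.8, 44.9 and 35.1 TPM in PA. PA2 came close to CN2, and the remaining embryos were further apart. The log2 fold change was -0.75 (SE 0.25, 95% interval -1.33 to -0.16) with an adjusted p of 0.132 in edgeR. TNNT3 had no more than 129 estimated counts in any embryo. CSRP3, a muscle LIM protein of the Z disc (chr2:40219288-40240614, plus strand), had the highest mean level of the 7 genes in both groups. It measured 584, 474 and 392 TPM in CN and 250, 339 and 351 TPM in PA, where the highest PA embryo was below the lowest CN embryo. The log2 fold change of CSRP3 was -0.58 (SE 0.19, 95% interval -1.02 to -0.15), with an adjusted p of 0.119 in edgeR and 0.0382 in DESeq2. It was -0.33 without CN1, the highest control. ACTN3, the alpha-actinin of fast glycolytic fibres (chr2:5860386-5873779, minus strand), was near the floor of detection. It had 14, 22 and 10 estimated counts in CN and 10, 15 and 8 in PA, or 2.93 ± 1.38 against 1.9 ± 0.636 TPM (SD, n = 3 each). The ACTN3 groups overlapped, and its interval, -1.49 to 0.43 on the log2 scale, is the widest of the 7 and holds both 0 and the TNNI2 value. Its log2 fold change of -0.53 became -0.16 without CN2, -0.3 without PA3 and -0.82 without PA2.

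The 2 transcription factors were not called. MYOD1, which commits cells to the skeletal muscle lineage, has 1 transcript at chr2:41422522-41424236 on the minus strand. Its level was 127, 164 and 162 TPM in CN and 108, 105 and 106 TPM in PA. All PA embryos were below all CN embryos, and CN1 was the nearest of the controls. The log2 fold change was -0.43 (SE 0.14, 95% interval -0.76 to -0.11), with an adjusted p of 0.121 in edgeR. MEF2C, which acts in heart and skeletal muscle and also in neurons and vessels, lies at chr2:96122407-96296927 on the minus strand. It had 184, 285 and 271 TPM in CN and 190, 228 and 269 TPM in PA, the PA range lying inside the CN range. Its log2 fold change was -0.04 (SE 0.12, 95% interval -0.32 to 0.25) with an adjusted p of 0.895. Exact two-sided permutation of the log2 TPM gave p = 0.1, the smallest that 3 against 3 embryos allow, for MYOD1, TNNI2, TNNT3, CSRP3 and MYBPC3, p = 0.7 for MEF2C and p = 0.3 for ACTN3.

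The order of the levels differed between the groups. In CN the means in TPM ran from CSRP3 through MYBPC3, MEF2C, TNNI2, MYOD1 and TNNT3 to ACTN3. In PA they ran from CSRP3 through MEF2C, MYBPC3, MYOD1, TNNI2 and TNNT3 to ACTN3. Neighbours whose ranges overlapped were MYBPC3 and MEF2C, and MEF2C and TNNI2, in CN, and CSRP3 and MEF2C in PA. The TPM of TNNI2 exceeded that of MYOD1 in 3 of 3 CN embryos and was below it in 3 of 3 PA embryos.

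A ratio within each embryo does not depend on how libraries are scaled, and MYOD1 was taken as the divisor after the values had been seen. TNNI2 per MYOD1, in TPM, was 1.67, 1.4 and 1.51 in CN and 0.809, 0.798 and 0.833 in PA. The PA ratios were lower and tightly grouped, with a mean log2 difference of -0.91 (exact permutation p = 0.1). MYBPC3 per MYOD1 was 1.99, 2.16 and 1.75 in CN and 1.23, 1.08 and 1.75 in PA, where PA3 was almost level with CN3. MEF2C per MYOD1 went the other way, from 1.45, 1.74 and 1.68 in CN to 1.76, 2.18 and 2.54 in PA. Its log2 difference was 0.40 (exact permutation p = 0.1). The TPM of MEF2C itself overlapped between the groups. That of the divisor, MYOD1, was 151 ± 20.7 in CN and 106 ± 1.5 in PA (SD, n = 3 each). For TNNT3, CSRP3 and ACTN3 the ratios overlapped, with log2 differences of -0.29, -0.12 and -0.07. These p-values cannot go below 0.1 and were not adjusted over the 6 ratios.

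**Figure D2:**
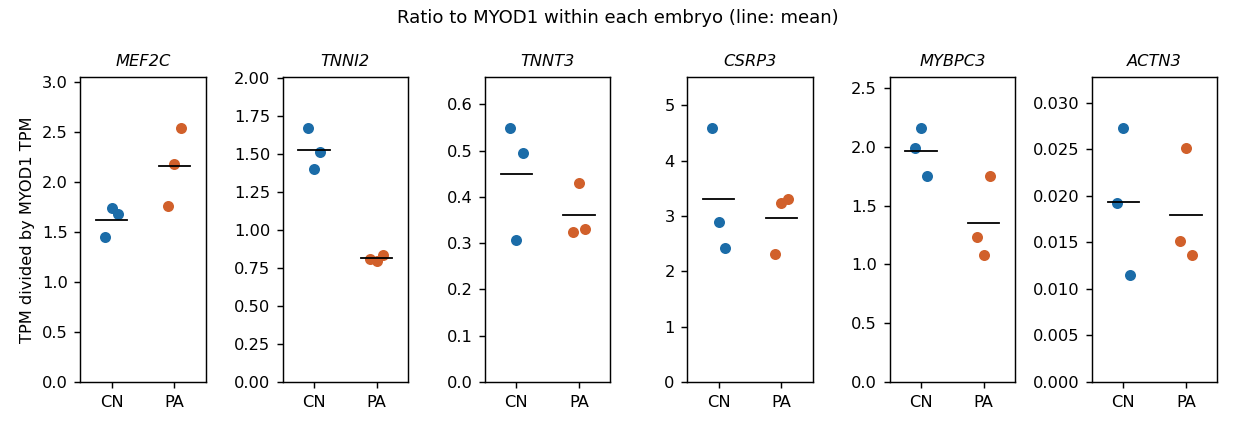
TPM of 6 muscle genes divided by the TPM of MYOD1 in the same embryo, 3 CN (blue) and 3 PA (orange) embryos, with a line at each group mean and a separate linear axis from 0 for each gene. The TNNI2 ratio drops from 1.4 to 1.67 in CN to 0.798 to 0.833 in PA. The MEF2C ratio is higher in PA, where the divisor MYOD1 is lower.

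TNNI2 and TNNT3 stand 43.9 kb apart, with LSP1 between them, and the near end of IGF2 lies 215.3 kb from TNNI2 and 152.3 kb from TNNT3. IGF2, a growth factor expressed from the paternal copy in many tissues, had 17613 ± 2805 TPM in CN and 391 ± 138 TPM in PA (SD, n = 3 each). Within 250 kb on either side of the troponin genes the annotation lists 19 genes, of which 10 were tested. The window was drawn around TNNI2 and TNNT3 and reaches IGF2, so its number of calls is only a description. Of the 8 tested genes other than TNNI2 and TNNT3, IGF2 and CTSD were lower in PA by adjusted p, against 4.42% of all genes. CTSD, the lysosomal protease cathepsin D, lies 53.9 kb from TNNI2 on its far side from IGF2. It fell from 3780 ± 400 to 1286 ± 46.5 TPM (SD, n = 3 each), a log2 fold change of -1.48 (SE 0.11) with an adjusted p of 0.000142 in edgeR. LSP1, a leukocyte actin-binding protein, had 67.6 ± 8.15 TPM in CN and 68.2 ± 12.6 TPM in PA, with a log2 fold change of 0.08 (SE 0.17, adjusted p 0.821 in edgeR). Neither LSP1 nor TNNT3 (adjusted p 0.132 in edgeR) was called.

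The remaining tested neighbours were not called. IFITM10 had a log2 fold change of -1.36 with a wide interval of -2.72 to -0.01. MRPL23, a mitochondrial ribosomal protein gene on the IGF2 side of TNNT3, had -0.19, DUSP8 had 0.22, INS had -0.08 and TH had 0.59. Beyond IGF2 the other listed neighbours, TSPAN32, CD81, TSSC4 and KCNQ1, had log2 fold changes of -0.46, 0.04, 0.04 and 0.11. SYT8, 1.1 kb before TNNI2, and ASCL2 had at most 7 estimated counts in any embryo and were not tested. H19 and IGF2-AS, which the study quantified at this locus, are not among the annotated genes listed and are not described here.

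**Figure D3:**
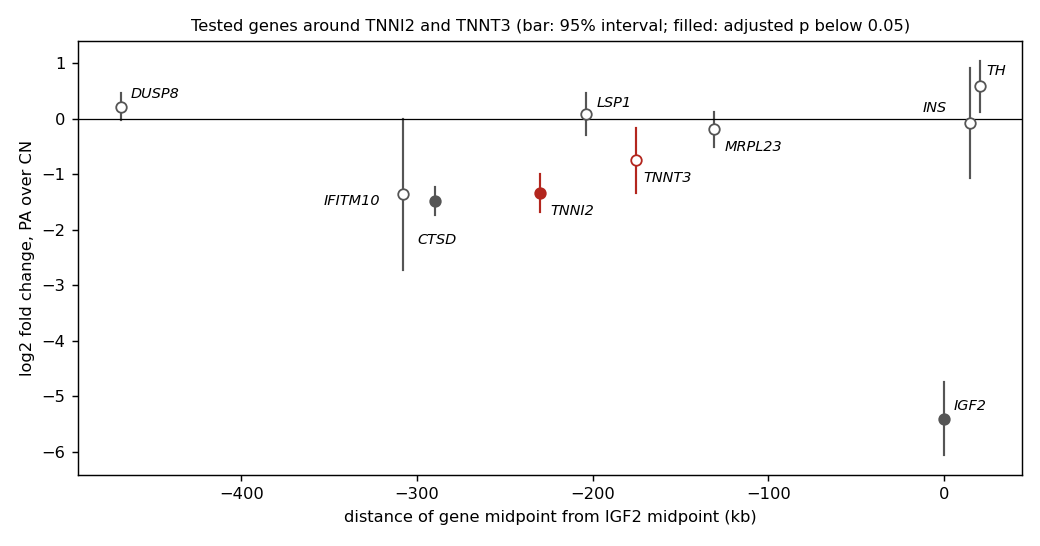
Log2 fold change, PA over CN, with 95% intervals for the 10 tested genes around TNNI2 and TNNT3 (red), against the distance of each gene's midpoint from that of IGF2 in kb; filled points have an adjusted p below 0.05. CTSD and TNNI2 at -1.48 and -1.34 are followed by LSP1 at 0.08 and TNNT3 at -0.75, with IGF2 at -5.41.

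Other muscle genes on chromosome 2 were taken from 3 lists, chosen with earlier results of these data known. Of 7 regulators of muscle development, 0 were called by edgeR, against 6.54% of all genes. At an unadjusted p under 0.05 there were 2, against 21.2%, and DESeq2 called 0, against 10.5%. Those 2 were MEGF10, picked out after its values were seen, and PITX1, both higher in PA. Their log2 fold changes were 0.31 and 0.26 (SE 0.11 each, adjusted p 0.14 and 0.226 in edgeR). None of the 7 log2 fold changes was negative, against 777 of 1652 over all genes. The median of the 7 regulators was 0.17, against 0.02 over all genes. CARM1, an arginine methyltransferase that coactivates MEF2C, had 549 ± 117 TPM in CN and 591 ± 69.3 TPM in PA (SD, n = 3 each). PITX1, a hindlimb homeobox factor, had 405 ± 68.1 against 458 ± 19.1 TPM, and TEAD1, which binds M-CAT elements, had 179 ± 51 against 192 ± 41.8 TPM. The groups overlapped for all 3 genes.

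Of 12 listed genes of the sarcomere, Z disc and muscle adhesion, 10 were tested and 0 were called by edgeR, with 2 at an unadjusted p under 0.05 and 2 called by DESeq2, against 21.2% and 10.5% of all genes. Their median log2 fold change was -0.06. Of the other listed genes, ILK was not placed on chromosome 2 by the annotation and MYOZ3 had at most 10 estimated counts in any embryo. TPM4, a tropomyosin that is also made outside striated muscle, was abundant at 6792 ± 621 TPM in CN and 6451 ± 765 TPM in PA (SD, n = 3 each), a log2 fold change of -0.01. PDLIM7, a scaffold of actin filaments, was at -0.11, and PARVA, an integrin-linked adhesion protein, was at 0.16. MYOT and CMYA5, which are specific to striated muscle and were picked out after their values were seen, were the ones with an unadjusted p under 0.05. MYOT, a Z disc protein, had 94.2, 102 and 76.3 TPM in CN and 54.6, 60.2 and 60.9 TPM in PA, with an adjusted p of 0.0609 in edgeR. For CMYA5 the log2 fold change was -0.84 (SE 0.26, adjusted p 0.106 in edgeR).

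Among 10 listed genes of excitation, energy supply and the neuromuscular junction, 9 were tested and 1 was called by edgeR, with 3 at an unadjusted p under 0.05 and 1 called by DESeq2. PYGM, the muscle glycogen phosphorylase, had 71.4, 90.9 and 70.6 TPM in CN and 36, 39.5 and 33.5 TPM in PA. The PYGM groups were far apart, with a log2 fold change of -1.02 (SE 0.14) and an adjusted p of 0.00493 in edgeR. LRP4, the agrin receptor at the junction, was at 0.21, ABCC8, a subunit of ATP-sensitive potassium channels, at 0.06, and ANO5, a membrane protein of muscle, at 0.35 (SE 0.11, 95% interval 0.1 to 0.61, adjusted p 0.106 in edgeR). With PYGM, the genes of this list at an unadjusted p under 0.05 were ANO5 and AMPD3, in opposite directions. AMPD3, an AMP deaminase picked out after its values were seen, had 13.9 ± 4 TPM in CN and 8.96 ± 0.865 TPM in PA (SD, n = 3 each) without overlap, with a log2 fold change of -0.55 (SE 0.18, 95% interval -0.97 to -0.13, adjusted p 0.121 in edgeR). Over the 3 lists 1 of 26 tested genes was called, against 6.54% of all genes called in either direction. At an unadjusted p under 0.05 there were 7 and in DESeq2 3, against 21.2% and 10.5% of all genes. The median log2 fold change was 0.05 against 0.02 over all genes.

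**Figure D4:**
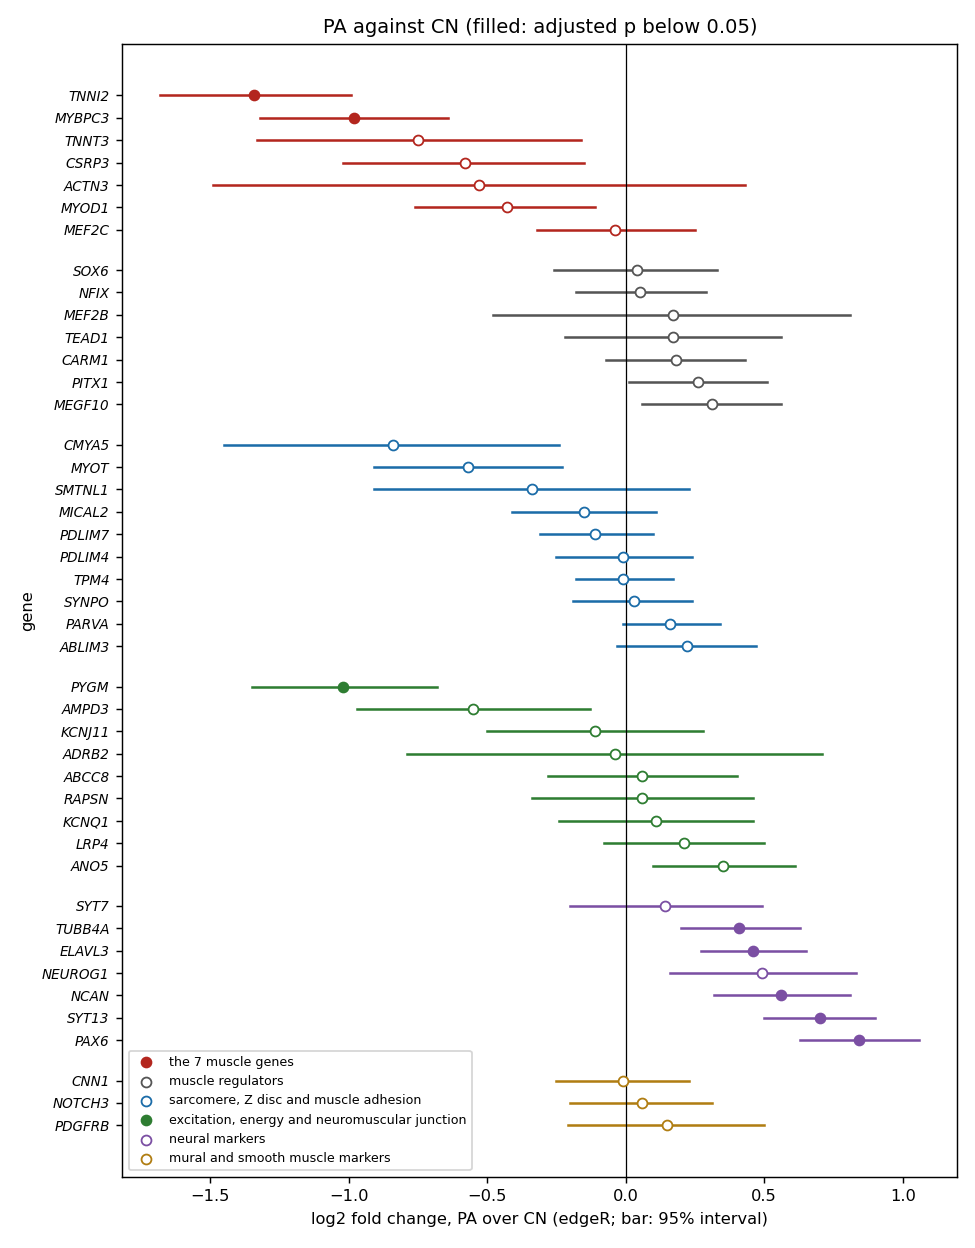
Log2 fold change, PA over CN, with 95% intervals from edgeR for the 7 muscle genes, the 3 further muscle lists, the neural markers and the mural and smooth muscle markers; filled points have an adjusted p below 0.05. TNNI2, MYBPC3 and PYGM are the filled points below 0, and 5 of the 7 neural markers are filled above 0.

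Kidney tubule and neural markers also differed between the groups, with no overlap of their summed levels. The marker lists were chosen with earlier results of these data known, so their counts are a description and not independent support. The summed level of the 7 muscle genes was 1433 to 1564 TPM in CN and 804 to 1036 TPM in PA. The 3 kidney tubule transporter genes summed to 135 to 212 TPM in CN and 24.3 to 49.3 TPM in PA, and 2 of them, SLC22A12 and SLC22A8, fell with log2 fold changes of -4.32 and -2.82, where 4.42% of all genes were lower by adjusted p. The third, SLC22A6, had 14.2 ± 4.08 TPM in CN and 15.2 ± 1.54 TPM in PA (SD, n = 3 each) with overlap, and most of the summed level in CN was that of SLC22A8. The 7 neural markers summed to 1373 to 1742 TPM in CN and 1825 to 2343 TPM in PA, and 5 of them rose, PAX6 by a log2 fold change of 0.84, SYT13 by 0.7, NCAN by 0.56, ELAVL3 by 0.46 and TUBB4A by 0.41, where 2.12% of all genes were higher. Mural and smooth muscle markers (858 to 1227 TPM in CN, 899 to 1202 TPM in PA), liver markers (2997 to 3509 and 2221 to 3898 TPM) and connective tissue markers (1684 to 2761 and 1961 to 3223 TPM) overlapped between the groups. Of those 10 genes edgeR called 0, 1 had an unadjusted p under 0.05 and DESeq2 called 0. No marker was at 0 in all embryos. The part of tissue composition or developmental stage in the muscle gene differences was not tested.

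The genes whose profile over the 6 embryos was most like that of a member were found by Pearson's r of log2 normalized counts, given as a description because the points share 2 groups. For TNNI2 they were MISP3 (r = 0.996), CDHR5 (0.993) and BBOX1 (0.992), which fell in PA with log2 fold changes of -1.18, -1.98 and -2.62. For MYBPC3 they were SLC34A1 (0.995), SLC5A12 (0.991) and SLC22A8 (0.991), which are transporters of the kidney tubule. MYOD1 was most like ARID3A (0.991) and DMGDH (0.981). TNNT3 was nearest to CD82, ATG4D and SLCO4C1 (0.992, 0.947 and 0.935), and CSRP3 to KIAA1191, CCNE1 and C2H1orf35 (0.968, 0.968 and 0.961). MEF2C was nearest to LOC110259485, ATP6 and TRAF6 (0.983, 0.959 and 0.952), and ACTN3 to TLE2, ANGPTL8 and RMND5B (0.962, 0.901 and 0.9).

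Transcript forms were examined for MYBPC3, TNNT3 and MEF2C, where Salmon divides reads between overlapping transcripts. Of the 42 member transcripts with any count, 23 were tested and edgeR called 0, against 0.258% of all transcripts tested. At an unadjusted p under 0.05 there were 4, against 9.95% of all transcripts, and DESeq2 called 3, against 7.06%, namely the TNNI2 transcript and the 2 main forms of MYBPC3. Fold changes below are therefore those of the genes, and the forms are given as shares of the gene's TPM.

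A pair of forms made up most of MYBPC3 in both groups. XM_021085217.1 held 47.6% ± 5.15 of the gene's TPM in CN and 50.8% ± 8.91 in PA, and XM_021085219.1 held 48.6% ± 3.94 and 46.8% ± 8.36 (SD, n = 3 each). Neither share separated the groups. One difference between them is a coding stretch of 39 bases at chr2:15255878-15255916 on the plus strand, which XM_021085219.1 carries and XM_021085217.1 lacks. It is shown as a coding difference between the main forms.
MYBPC3 stretch: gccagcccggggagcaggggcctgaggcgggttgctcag
The stretch lies in 4 annotated transcripts, which together held 52.4% ± 5.15 of the gene's TPM in CN and 49.2% ± 8.91 in PA (SD, n = 3 each).

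Fast skeletal troponin T is known for a pair of alternative exons near its end, and TNNT3 has 2 exons of 41 bases, at chr2:1314252-1314292 and chr2:1314886-1314926 on the plus strand. They are shown to let the choice between them be followed, and 20 of their 41 bases are identical at the same position.
TNNT3 upstream exon: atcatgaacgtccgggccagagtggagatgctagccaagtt
TNNT3 downstream exon: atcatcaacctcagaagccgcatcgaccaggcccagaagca
Transcripts with the upstream exon held 70.4%, 75.6% and 89.1% of TNNT3 TPM in the CN embryos and 60.4%, 80.2% and 70.3% in the PA embryos. The downstream exon held 29.1%, 21.5% and 10.4% in CN and 38.6%, 17.1% and 28.7% in PA. The upstream exon was the more used in all 6 embryos, and the groups overlapped for both exons. The annotation is not strict about the choice, since 15 of the 42 TNNT3 transcripts hold both exons, 12 the upstream one alone, 12 the downstream one alone and 3 neither. With 58 to 129 counts per embryo spread over 10 transcripts, none of which had counts in all 6 embryos, these shares are uncertain. The same holds for a 15-base exon at chr2:1305831-1305845, picked out after its values were seen, whose transcripts held 58.1%, 41.8% and 42% in CN and 0.963%, 27.4% and 28% in PA.

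MEF2C TPM was assigned mainly to transcripts from 3 annotated start regions. Starts between 96296839 and 96296927, the most distal, held 35.2% ± 4.92 of MEF2C TPM in CN and 32.5% ± 2.83 in PA (SD, n = 3 each). A middle region at 96276002 to 96276410 held 28.1% ± 5.36 and 31.7% ± 6.27, and the proximal start of NM_001044540.1 at 96217063 held 32.9% ± 11 and 31% ± 5.62. In estimated counts the 3 regions held means of 852, 730 and 288 in CN and 786, 816 and 267 in PA. The first exon of NM_001044540.1 lies inside an exon that 22 and 26 other transcripts carry in its shorter and longer version, so its share rests on how Salmon divided reads and does not show a start at that place. None of these 3 regions separated the groups. Among the minor ones, the starts at 96220440 to 96220442, picked out after their values were seen, held 1.97% ± 0.329 in CN and 3.01% ± 0.525 in PA without overlap, and this was not tested. A 24-base coding exon of MEF2C was included in 2.69% to 8.13% of its TPM over the 6 embryos, so most MEF2C RNA lacked it in PA and CN alike.

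**Figure D5:**
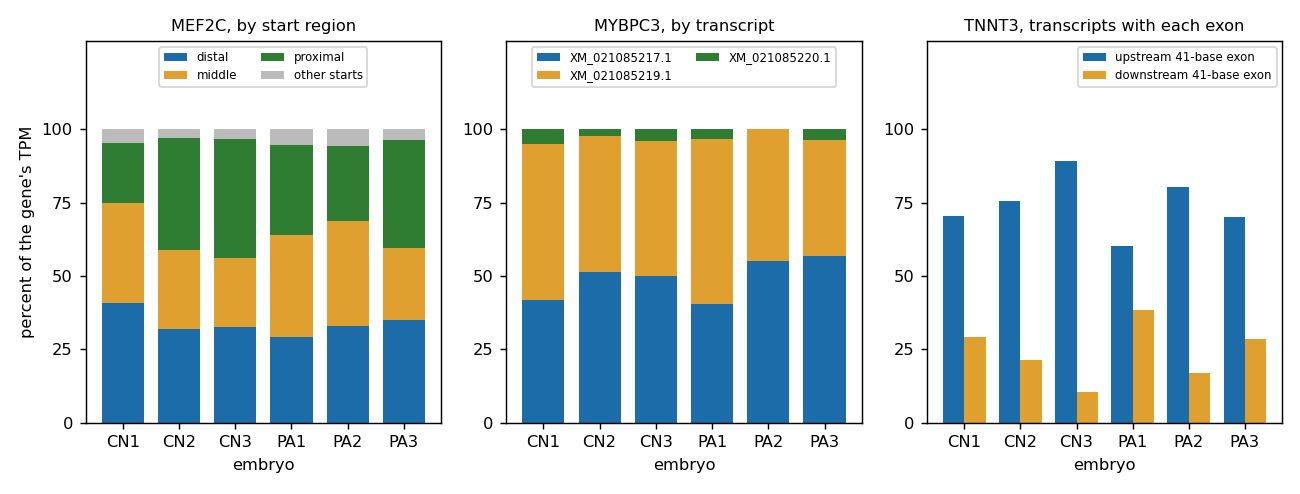
Percent of each gene's TPM by embryo for the 3 main start regions of MEF2C and the sum of its other starts, the transcripts of MYBPC3 (both stacked) and the transcripts of TNNT3 that carry the upstream or the downstream 41-base exon (side by side). The upstream TNNT3 exon is above 60% in every embryo.

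The deposited tables hold 3100284 to 3573406 estimated counts per embryo, of which 82.8% to 92.7% lay on annotated genes of chromosome 2. At these totals, which are not the number of reads sequenced, 3 counts correspond to 0.84 to 0.968 CPM, where counting error alone is covered. Transcripts without a gene in the annotation held 6.93% to 7.8% of the counts in CN and 8.47% to 17% in PA, the highest being PA1. TPM is relative to all listed transcripts. The direction of the log2 TPM differences of the 7 genes was the same with TMM scaling. It was also the same over chromosome 2 genes without H19, IGF2 and mitochondrial transcripts. Muscle genes of other chromosomes were not described here. The shares over all genes include 122 tested genes outside the chromosome 2 annotation.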

How the data were processed

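Reads from poly(A)-selected TruSeq libraries of 3 PA and 3 CN whole embryos were quantified by the authors against the pig transcriptome with Salmon 1.3.0, whose version the submitters' processing notes also give. The authors deposited, for each transcript, an estimated count, not normalized and not always whole, and a TPM value, scaled to a fixed sum per embryo. Deposited effective lengths entered the offset.

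Gene names and positions came from NCBI Annotation Release 106 of Sscrofa11.1, and chromosome 2 genes were described. Rounded gene sums of the estimated counts were tested with edgeR 4.0.16 in R 4.3.3 (TMM factors, average-length offset as in tximport, filterByExpr with minimum count 10 and total 15, robust quasi-likelihood test), with Benjamini-Hochberg adjustment over 1652 genes. The thresholds were those of the study, 0.05 for the adjusted p and 1 for the absolute log2 fold change. SE is the log2 fold change divided by the root of F. DESeq2 1.42.0 was an alternative. TPM was compared by exact permutation of log2(TPM + 0.1). Fold changes of the 1652 genes, 122 of them outside the chromosome 2 annotation, include 48 past both thresholds. Procedures were tested on simulated data.

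The 7 genes, the lists and the naming rule were chosen with earlier results of these data known. All 7 genes were named, with the called genes of each list and up to 3 others of highest mean TPM, the tested neighbours, and the 3 genes most alike in profile, of which 1 is not reported here. The alternatives were library totals, no length offset, other filters, DESeq2, other TPM scalings and pseudocount, a replicate block and leaving out each embryo. No 2 libraries were alike enough to be 1 library. Embryos of a group shared gilts, and which did is not given in the sources used here, so p-values measure the spread between these embryos and not between litters.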

Additional observations from a re-analysis of the deposited data

How the results depend on the processing

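Over 20 results and 209 alternative values, 184 kept direction and call, or for counts stayed within 1.5 times, 3 passed it newly, 17 counts moved and 5 reversed. TNNI2 stayed between -1.40 and -1.28 (adjusted p 7.07e-11 to 0.0137) and MYBPC3 between -1.11 and -0.84 (1.7e-16 to 0.0306). The reversals were all of MEF2C, whose value is near 0. Leaving out 1 embryo gave a MEF2C log2 fold change of -0.15 to 0.05 (0.04 without CN2, 0.05 without CN3 and 0.04 without PA1) and a log2 TPM difference of -0.29 to 0.03 (0.02 without CN2, 0.03 without PA1). Without the expression filter TNNT3 (-0.75, adjusted p 0.0493) and CSRP3 (-0.58, adjusted p 0.000977) passed the adjusted p, as CSRP3 did in DESeq2 (-0.59, adjusted p 0.0382). The members past both thresholds were 2 with library totals and 1 to 2 when 1 embryo was left out, 2 without CN1, CN3 or PA3, and 4 passed the adjusted p without the filter. Over all genes, 77 were differentially expressed without the filter and 34 to 52 when 1 embryo was left out. Genes with an adjusted p under 0.05 numbered 108, against 196 without the filter, 173 in DESeq2 and 48 to 128 when 1 embryo was left out (48 without CN2, 54 without CN3, 58 without PA2 and 70 without PA3). The 3 muscle lists had 2 calls with library totals, 3 without the filter and 3 in DESeq2, where MYOT or CMYA5 joined PYGM, and 3 member transcripts were called by DESeq2. The cause was not tested.

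Same-numbered PA and CN embryos are different embryos, and their deviations from the group means correlated by 0.027 to 0.225, so the numbers were not taken to pair them. With the replicate block TNNI2 had a log2 fold change of -1.34 (adjusted p 0.0105) and MYBPC3 -0.99 (adjusted p 0.0302), 43 genes passed both thresholds, and the muscle lists had 2 calls with CMYA5 added. ACTN3 gave no value where 10 counts were required in every embryo. Counts were low for ACTN3, at 8 to 22 per embryo, and for TNNT3, at 58 to 129.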
